A study of Monodelphis domestica with 2 samples.

Results

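IT_A_4 is a transcriptomic type of intratelencephalic (IT) glutamatergic neuron, described here from visual area V1 of a marsupial, Monodelphis domestica, the gray short-tailed opossum. Its members were the nuclei that carried the type label IT_A_4 and the subclass label IT_A in the deposited annotation. They numbered 1594, of 9864 IT_A nuclei and 32764 labelled nuclei in all. The type labels came from unsupervised clustering, and the annotation gave them a number and no layer or projection target.

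The tissue came from 2 adult males, both hemispheres of each pooled, and there was no treatment or other group. Animal 1 was aged 1.5 years and animal 2 was aged 2 years. Nuclei were sorted on the DNA dye Draq5 and each suspension was split into 2 libraries, 1A and 1B for animal 1 and 2A and 2B for animal 2, for droplet-based single-nucleus RNA sequencing. A pair of experimenters handled the replicates side by side. Age, and the experimenter if each took 1 animal, cannot be told apart from the animal. Libraries held 59170718, 55625042, 61251720 and 69706055 UMIs (unique molecular identifiers, by which captured RNA molecules are counted). No barcode was shared between libraries among the IT_A_4 nuclei, and 13 to 26 were shared between pairs of libraries among all labelled nuclei.

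IT neurons send their axons within the telencephalon, to other cortical areas and to the striatum, and in eutherian cortex they occupy several layers. CUX2 encodes a homeodomain transcription factor of upper-layer IT neurons. BCL11B (also known as CTIP2) is a zinc finger factor best known from neurons that project below the telencephalon, where FEZF2 acts upstream of it. CUX2 was the marker against which the type was checked.

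Levels below are CPM (UMI counts scaled to a common total) from UMIs summed over the nuclei of a type in an animal, so the replicate is the animal (n = 2), and ± gives the SD of the 2 animals. In such a sum, fewer nuclei that transcribe a gene and less RNA per nucleus cannot be told apart. CPM does not account for gene length, so levels are compared between groups for 1 gene and not between genes. Log2 differences set IT_A_4 against the mean of the other 4 IT_A types and come with their SE from edgeR. A gene is termed called where edgeR's quasi-likelihood test gave a Benjamini-Hochberg adjusted p under 0.05 over all 17001 genes tested. The types had been clustered on these same counts, so a call describes a difference against the spread between animals and is not independent evidence that the type exists.

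IT_A_4 made up 16.5% ± 4.28 of IT_A nuclei and 8.03% ± 1.75 of glutamatergic nuclei. In animal 1 it held 842 of 4301 IT_A nuclei (19.6%, exact Clopper-Pearson 95% interval 18.4 to 20.8%), and in animal 2 it held 752 of 5563 (13.5%, 12.6 to 14.4%). These intervals cover counting error only. Libraries 1A and 1B gave shares of 19.1% and 20.1%, and libraries 2A and 2B gave 14.5% and 12.8%, so that both libraries of animal 1 lay above both of animal 2. By mean share IT_A_4 was the 4th of the 5 types, after IT_A_1 (33.6% ± 15.2), IT_A_2 (21.9% ± 8.67) and IT_A_3 (17.9% ± 0.183), and before IT_A_5 (10.1% ± 2.06). Its mean differed from that of IT_A_3 by less than its own SD, and from that of IT_A_2 by less than the SD of IT_A_2.

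Nuclei of IT_A_4 were the deepest of the subclass. Their median was 9420.0 UMIs and 3444.5 genes in animal 1 and 10859.5 UMIs and 3520.0 genes in animal 2. The medians of the other IT_A types lay between 4049 and 9270.0 UMIs. IT_A_4 had the highest median of the 5 types in each of the 4 libraries, at 9643 and 9256.5 UMIs in 1A and 1B and at 11618 and 9733 in 2A and 2B. The mean of its medians (10139.8 ± 1018) exceeded that of IT_A_2 (9129 ± 199.8) by less than 1 SD. The lowest median belonged to IT_A_1 of animal 1 (4049 UMIs), against 8384 for IT_A_1 of animal 2. The doublet caller Scrublet had marked 26 IT_A_4 nuclei in animal 1 (3.09%) and 34 in animal 2 (4.52%), against 0.51 to 4.34% in the other IT_A types.

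**Figure D1:**
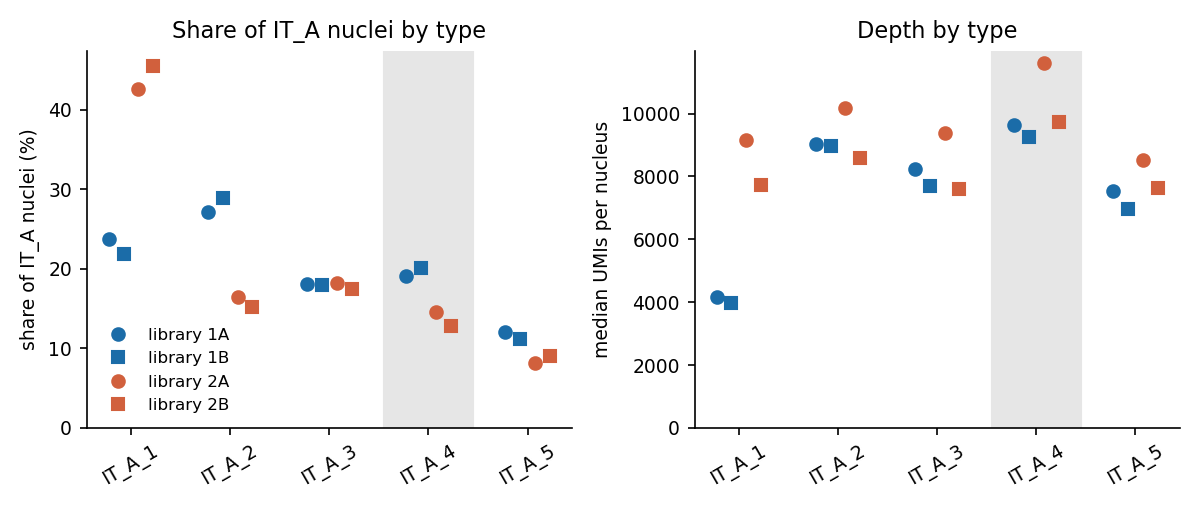
Share of IT_A nuclei in percent (left) and median UMIs per nucleus (right) for the 5 IT_A types, with 1 point per library and the column of IT_A_4 shaded. IT_A_4 held 12.8 to 20.1% of IT_A nuclei and had the highest median depth in each library.

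The label was checked against marker genes of cortical cell types. CUX2 was detected at 438 CPM in animal 1 and 561 in animal 2. Among the other types it ran from 257 in IT_A_5 through 311 in IT_A_2 and 394 in IT_A_3 to 552 in IT_A_1, and among the other IT groups it was 581 ± 139 in IT_D, 437 in IT_B and 31.9 in IT_C. In L5PT, the pyramidal tract neurons of layer 5, it was 25.5. By mean CUX2 level IT_A_4 was the 3rd of the 12 glutamatergic groups, after IT_D and IT_A_1. The paper mapped IT_D to layer 6 IT neurons of the mouse. A high CUX2 level therefore does not by itself mark an upper-layer type here. The log2 difference of 0.49 (SE 0.15) had an edgeR adjusted p of 0.0808 and so was not called. CUX2 was called higher with the animal as a block (edgeR adjusted p = 5.71e-05), in DESeq2 (adjusted p = 0.0422), with no low-count filter (edgeR adjusted p = 0.000382), with equal nuclei per type (edgeR adjusted p = 0.0431) and with IT_A_1 left out of the comparison (edgeR adjusted p = 0.0200). It was not called in the other 6 alternatives, where adjusted p ran from 0.0754 with nuclei matched on UMIs to 0.307 with types predicted from other genes and 0.748 with the other IT_A nuclei pooled. CUX2 was thus present in IT_A_4 but did not single it out, since the mean of IT_A_1 was higher, though by less than 1 SD.

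Markers of glial cells lay in or near the range of the other IT_A types, while the GABAergic list was higher through 1 gene. Summed levels of 9 GABAergic neuron markers were 39.9 CPM in animal 1 and 28.5 in animal 2, against 13.8 to 26.6 in the other IT_A types and 1350.4 to 3417 in GABAergic groups. ADARB2, an RNA-editing family gene found in some interneurons, gave 29.3 and 19.2 of these, and was the only one of the 5 markers tested that was called. GAD1 and GAD2, which make the transmitter GABA, were at 2.97 ± 0.241 and 2.45 ± 0.169 CPM in IT_A_4, below the mean of every other IT_A type (3.44 to 4.16 and 3.03 to 4.79). The 5 oligodendrocyte markers summed to 109 and 104 CPM, within the 76.8 to 134 of the other types. Only ST18 among them was called higher. The astrocyte markers summed to 118 and 135 CPM (other types 99.6 to 205) and the microglial markers to 2.33 and 1.86 (other types 1.55 to 3.49), with C1QA at 0 in both animals. The part of these transcripts in the differences below was not tested beyond leaving out Scrublet doublets. The upper-layer IT markers summed to 1639 and 1859.9 CPM, against 950.6 to 1775 in the other types. RASGRF2 gave 931 and 1024 CPM of this and was the only one of the 6 that was called, while OTOF was at 6.76 and 18.95 against a mean of 41.1 and was called lower with the animal as a block (edgeR adjusted p = 0.000292) but not without it (log2 difference -1.14, edgeR adjusted p = 0.213). The L5PT markers summed to 475 and 447, nearly all of it BCL11B, against 50.5 to 95.3. Markers of layer 5 near-projecting neurons summed to 54.3 and 78.6 CPM, both above the range of the other types. TLE4 was called higher among them (47.6 and 73.7 CPM, edgeR adjusted p = 0.00568). It is also listed for layer 6 corticothalamic neurons, whose markers summed to 137 and 170 (other types 108 to 277), with FOXP2 called lower. Of the IT_C markers, ETV1 was called higher (7.93 and 6.86 CPM, edgeR adjusted p = 0.0052) and DEPTOR lower.

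Against the mean of the other 4 IT_A types, 1584 of 17001 genes were called (9.32%), 1019 of them higher in IT_A_4 (5.99%) and 565 lower (3.32%). The leading higher genes encoded peptide receptors, a heparan sulfate enzyme, an actin-binding protein, a calcium channel and 2 zinc finger factors. Over the 24 leading genes, 12 in each direction, the edgeR adjusted p ran from 3.98e-09 (SLC4A4) to 0.00823 (EPHB2). For 1581 of the called genes both animals gave the same direction. In 776 of the higher genes IT_A_4 lay above each other IT_A type in both animals, as it did for 8.51% of all genes tested. In 444 of the lower genes it lay below each of them, as it did for 7.63% of all genes tested. With the animal as a block the test called 1770.0 genes higher (10.4%) and 1177 lower (6.92%), and with the other IT_A nuclei summed to 1 profile per animal, which left 2 sums a side, 295 (1.61%) and 192 (1.05%).

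NDST4 (ENSMODG00000005217 in the files) set IT_A_4 apart from each other group. It encodes a bifunctional enzyme that removes acetyl groups from heparan sulfate and adds sulfate in their place. NDST4 measured 784 CPM in animal 1 and 893 in animal 2. Across the 8 sums of the other IT_A types it ranged from 18.5 to 81.3, so the groups were far apart (log2 difference 4.49, SE 0.19). The next highest of the 22 groups were oligodendrocytes (209.6 ± 29.0) and, among glutamatergic groups, IT_B (140.4 ± 58.1), and NDST4 was higher in IT_A_4 than in each of them in both animals. Of the named genes 1 other, SLIT3, had this property.

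Neuropeptide receptors took 2 of the 3 largest differences. MCHR2 (ENSMODG00000018088), a receptor for melanin-concentrating hormone, measured 47.7 CPM in animal 1 and 22.9 in animal 2. It did not exceed 0.863 in any other IT_A sum (log2 difference 6.51, SE 0.29). Outside IT_A it was found at 37.8 ± 16.1 in IT_D, 21.9 ± 7.81 in IT_B and 14.9 ± 1.57 in IT_C, so the other IT subclasses carried it while the other IT_A types barely did. NMBR, the receptor for neuromedin B, measured 57.5 and 55.0 CPM against 0.996 to 5.71 (log2 difference 4.73, SE 0.20). IT_B was higher still for NMBR (82.1 ± 15.4).

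BCL11B (ENSMODG00000012964) was the listed transcription factor with the largest difference. It measured 439 CPM in animal 1 and 426 in animal 2, with 29.9 to 68.2 in the sums of the other IT_A types (log2 difference 3.38, SE 0.12). By library it measured 455 and 423 in 1A and 1B, then 419 and 432 in 2A and 2B. IT_A_4 sat between the other IT groups and the deep-layer groups. IT_B, IT_C and IT_D had 29.8, 80.1 and 88.2 CPM. The groups L5PT, L5NP (near-projecting neurons of layer 5), L6CT (corticothalamic neurons of layer 6) and L6b had 1094 ± 71.0, 1173 ± 50.4, 1083 ± 54.3 and 1011 ± 176. Among GABAergic groups, Lamp5 (541 ± 14.5), Sst (438 ± 44.9) and Pvalb (427 ± 13.0) were at levels like that of IT_A_4.

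FEZF2 was named after its values were seen, as were the other genes of this paragraph. FEZF2 was at 1.40 and 0.93 CPM in IT_A_4, against 1.73 to 3.87 in the other IT_A types and 34.3 ± 2.31 in L5PT. FEZF2 was low in all IT_A types, and its difference was not called (log2 difference -0.95, edgeR adjusted p = 0.137). Of the other markers listed for L5PT, POU3F1 (5.95 and 3.60 CPM) and NPSR1 (29.0 and 16.3) were not called.

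**Figure D2:**
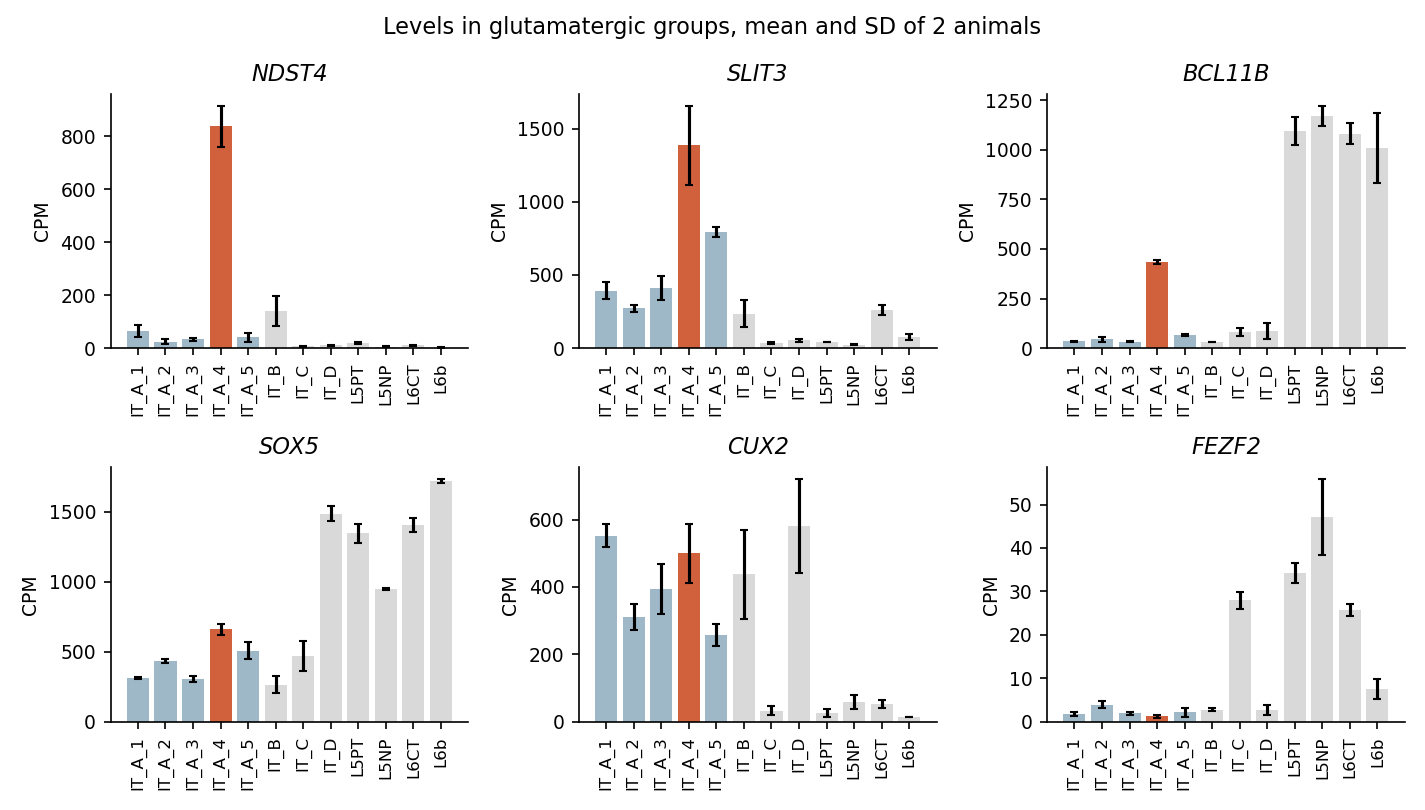
Mean CPM of 6 genes in the 12 glutamatergic groups, with error bars for the SD of 2 animals. IT_A_4 is drawn in orange, the other IT_A types in blue and all other groups in grey. NDST4 and SLIT3 peaked in IT_A_4, BCL11B lay between the IT groups and L5PT, L5NP, L6CT and L6b, and SOX5 was higher in IT_A_4 than in the other IT_A types.

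The other leading higher genes had the same pattern of a wide gap to each IT_A type. PLCXD3, a phospholipase C family gene, measured 169 and 202 CPM in the 2 animals against 2.24 to 9.94. CALD1, which encodes the actin-binding protein caldesmon, measured 105 and 129 against 1.77 to 15.8. ZNF536, a zinc finger factor, measured 151 and 197 against 6.47 to 11.4. In none of these did the ranges overlap. SLC4A4, a sodium bicarbonate cotransporter, was at 153 CPM in both animals and at 8.37 to 19.1 elsewhere in IT_A. CACNA1H, the pore of a low-threshold calcium channel, was at 64.2 and 64.8, with IT_A_1 next (17.0 and 16.7). NRP2, a co-receptor for class 3 semaphorins, was at 41.4 and 43.4, with IT_A_5 next (8.71 and 12.9). DCBLD1 (27.7 and 21.6 against at most 7.39) and PLA2G4E, a cytosolic phospholipase A2 gene (22.7 and 31.0 against at most 4.95), also lay above each IT_A type.

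Most of these genes were shared with groups outside IT_A. By mean level IT_A_4 was the highest glutamatergic group for 6 of the 12 leading higher genes and the next to highest for 4, and it was the highest of all 22 groups for 1, NDST4. For 9 of the 12, at least 1 GABAergic group was higher than IT_A_4. ZNF536 is an example, at 1054 ± 0.126 CPM in Lamp5 interneurons.

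The leading lower genes included receptors, a potassium channel subunit and secreted or matrix proteins. ADGRG2, an adhesion G protein-coupled receptor, measured 7.93 and 8.25 CPM in IT_A_4. It was between 74.0 and 381 in the other sums and was highest in IT_A_5 (332 and 381), giving the largest of the lower differences (log2 difference -4.29, SE 0.13). KCNAB1, an auxiliary subunit of voltage-gated potassium channels, measured 48.4 and 50.6 against 182 to 439. ADAMTSL1, a matrix protein, measured 8.63 and 9.88 against 40.7 to 77.2. Each of these was below every other IT_A type in both animals.

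RXRG, a retinoid X receptor, was at 4.66 and 4.53 CPM in IT_A_4, and its level elsewhere rested largely on IT_A_2 (79.5 and 101, against at most 16.1 in IT_A_1). MOXD1 (4.08 and 4.19, others 13.1 to 51.7), the matrix gene POSTN (4.78 and 7.09, others 14.4 to 68.2) and the GTPase gene RIT2 (6.65 and 6.05, others 17.2 to 90.4) were below every type in both animals. So was the engulfment adaptor gene GULP1 (13.1 and 8.49, others 27.9 to 131). EPHB2, an ephrin receptor, was at 48.0 and 23.7 with others at 71.9 to 288, and its level was higher in animal 1 in each of the 5 types. GUCY1A1, a subunit of the nitric oxide receptor, was at 47.0 and 24.8 (others 89.9 to 263). PCSK6, a proprotein convertase, had ranges that overlapped, since IT_A_5 of animal 2 lay below IT_A_4 (25.5 and 16.4). Of the 12 leading lower genes, 3 (MOXD1, RIT2 and GULP1) had their lowest mean of all 22 groups in IT_A_4, and 8 were lowest or next to lowest among glutamatergic groups.

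**Figure D3:**
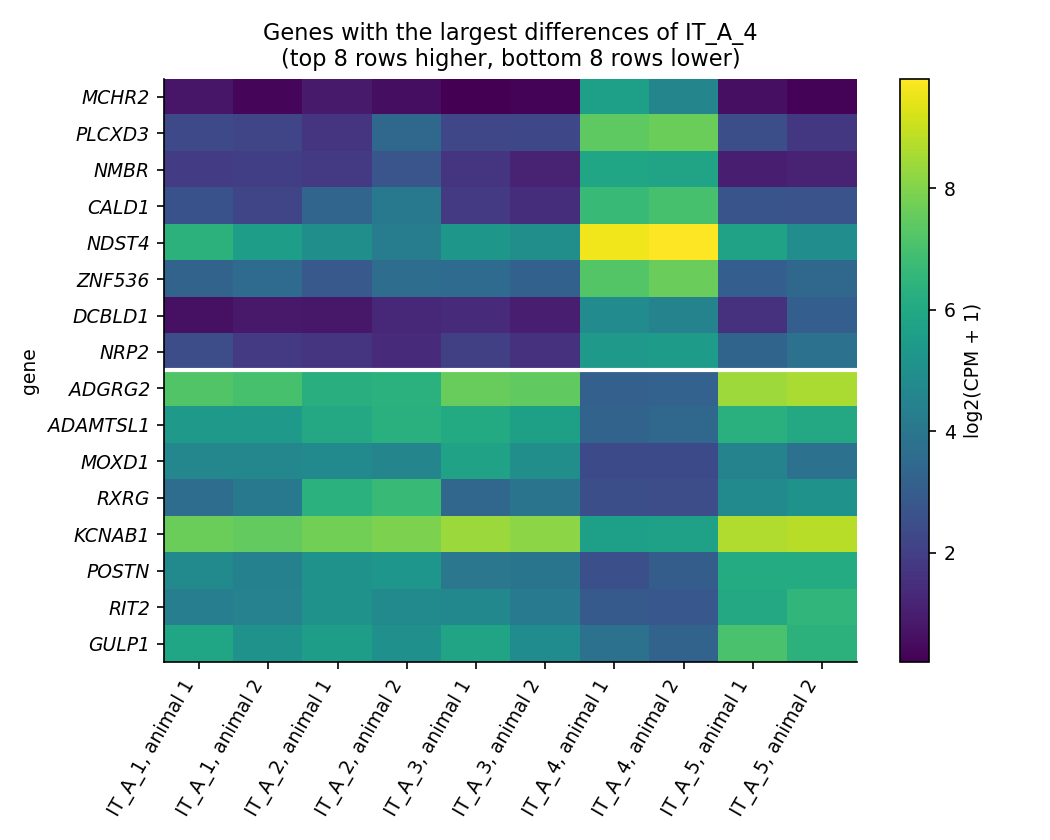
Levels of the 8 leading genes in each direction as log2(CPM + 1), in 1 column per type and animal. Along each line, both columns of IT_A_4 are brighter than the others for the upper 8 genes and darker for the lower 8. The genes were chosen for the largest differences of IT_A_4 with the same direction in both animals, so this pattern follows from the choice.

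A further 616 called genes had no symbol in the files (7.96% of the 7740 such genes tested, against 10.5% of genes with a symbol). The largest higher differences among them were those of ENSMODG00000049642 (32.2 and 36.3 CPM, others 1.81 on average) and ENSMODG00000006740 (306 and 392 CPM, others 46.8). The largest lower ones were those of ENSMODG00000049718 (6.53 and 4.88 CPM, others 66.4) and ENSMODG00000040739 (9.09 and 5.81 CPM, others 43.3).

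In pairs of types, the fewest genes were called against IT_A_3. The test called 1282 genes against IT_A_3 (7.54%), 1568 against IT_A_2 (9.22%), 2009 against IT_A_1 (11.8%) and 2188 against IT_A_5 (12.9%). A set of 222 genes was called higher (1.31%) and 118 lower (0.694%) against each of the 4 types as well as against their mean. With the nuclei of the other types matched to IT_A_4 on UMIs, the counts were 818 against IT_A_3, 1305 against IT_A_2, 1086 against IT_A_1 and 1255 against IT_A_5. Matching kept 133 and 382 IT_A_3 nuclei in the 2 animals, 502 and 452 of IT_A_2, 199 and 752 of IT_A_1 and 113 and 102 of IT_A_5. The matched counts thus rest on unequal numbers of nuclei and do not rank the types. With the animal as a block the counts for IT_A_3 (3132) and IT_A_2 (3129) were alike. Spearman correlations of IT_A_4 with the other groups, over 17001 genes that share libraries and animals, were 0.960 ± 0.0036 for IT_A_3, 0.957 for IT_A_1 (SD 0.0182) and for IT_A_2 (SD 0.00571), 0.955 ± 0.000142 for IT_B, 0.947 ± 0.0017 for L5PT and 0.944 ± 0.00508 for IT_A_5. The same type correlated at 0.977 between the 2 animals. IT_C was also at 0.944. By these means IT_A_4 lay about as close to IT_B as to IT_A_1 and IT_A_2, with differences within the SD of IT_A_1. The order changed between the animals. IT_A_1 was at 0.944 in animal 1, below IT_B (0.955), and at 0.970 in animal 2, above IT_A_3 (0.958) and IT_B (0.955). IT_A_1 of animal 1 was also the shallowest group (median 4049 UMIs), and the part of depth in this was not tested.

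Labels were carried from each animal to the nuclei of the other, by nearest neighbours in expression. Of the IT_A_4 nuclei of animal 1, 706 of 842 received their own type (83.8%, exact 95% interval 81.2 to 86.3%), and of those of animal 2, 695 of 752 (92.4%, 90.3 to 94.2%). In animal 1 the largest other share went to IT_A_3 (91 nuclei, 10.8%), and in animal 2 to IT_A_1 (27 nuclei, 3.59%). Nuclei of other types seldom received IT_A_4, the most being 100 IT_A_1 nuclei (4.06%) and 37 IT_A_3 nuclei (3.74%) of animal 2. After thinning of each nucleus to 3000 UMIs the shares were 77.0% and 79.6%. When types were instead predicted from the other animal and from genes other than those tested, 984 were called higher (5.84%) and 589 lower (3.49%), and 1357 of the calls were shared with the test on the deposited labels, all in the same direction. This removes the tested genes from the prediction, while the labels used for training were still those of the deposited clusters.

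**Figure D4:**
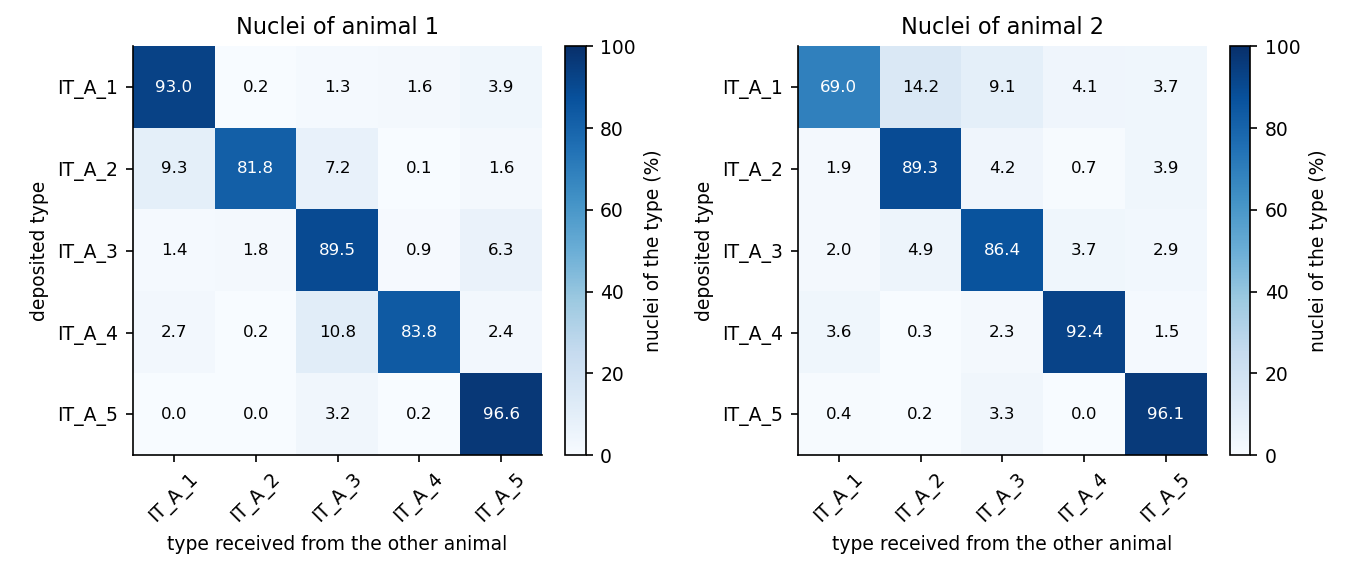
Percent of the nuclei of each deposited IT_A type (rows) that received each type (columns) from the other animal, for animal 1 (left) and animal 2 (right). IT_A_4 kept its label in 83.8% and 92.4% of nuclei, and 10.8% of those in animal 1 received IT_A_3.

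Within the type, 2 of the 12 leading higher genes, NDST4 and BCL11B, had a UMI in most nuclei at a fixed depth. Each nucleus was thinned to 3000 UMIs, which left out 37 IT_A_4 nuclei of animal 1 and 11 of animal 2 (median 10190.0 UMIs in those kept, before thinning). BCL11B had a UMI in 52.9% of thinned nuclei of animal 1 and 58.6% of animal 2 (70.7% and 82.4% without thinning). In the other IT_A types the thinned shares were 6.6 to 13.3%. In oligodendrocytes, which should lack BCL11B, the share was 6.9% of 565 nuclei (median 3630.0 UMIs before thinning). The lowest of the other IT_A types lay at that level. Another 3482 oligodendrocytes were left out as shallower, and Scrublet doublets were not removed from the 565, so their share is no plain background. NDST4 had a UMI in 74.2% and 83.1% of IT_A_4 nuclei and in 3.01 to 17.3% of the other types. In oligodendrocytes the NDST4 share was 38.2%, above each other IT_A type. The other 10 leading higher genes had a UMI in 6.34% (MCHR2) to 34.9% (SLC4A4) of thinned IT_A_4 nuclei of an animal, against at most 4.73% in the other IT_A types. Their shares in oligodendrocytes were at most 5.31%, apart from ZNF536 (83.7%). MCHR2 had one in 11.3% and 6.34%, with at most 0.43% in the other types and 0.177% in oligodendrocytes. For ADGRG2 the shares were 1.99% and 2.16%, near the 0.885% of oligodendrocytes, and they were 18.6 to 61.7% in the other types. A median of 3 of the 12 leading higher genes was seen per thinned IT_A_4 nucleus in both animals, against 0 in each other type, and 12.2% and 4.45% of IT_A_4 nuclei showed none, against 68.2 to 78.1% elsewhere. These genes had been chosen on the same nuclei, so this describes the spread within the type and tests nothing.

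The differences were then grouped by 14 gene lists. Counts of called members are set beside the background of all genes tested (9.32%) and of the 6279 genes at 20 CPM or more in IT_A_4 or the others (15.1% called, 9.14% higher and 6.0% lower). No list was tested as a set. The median log2 difference was 0.01 over all genes tested.

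**Figure D5:**
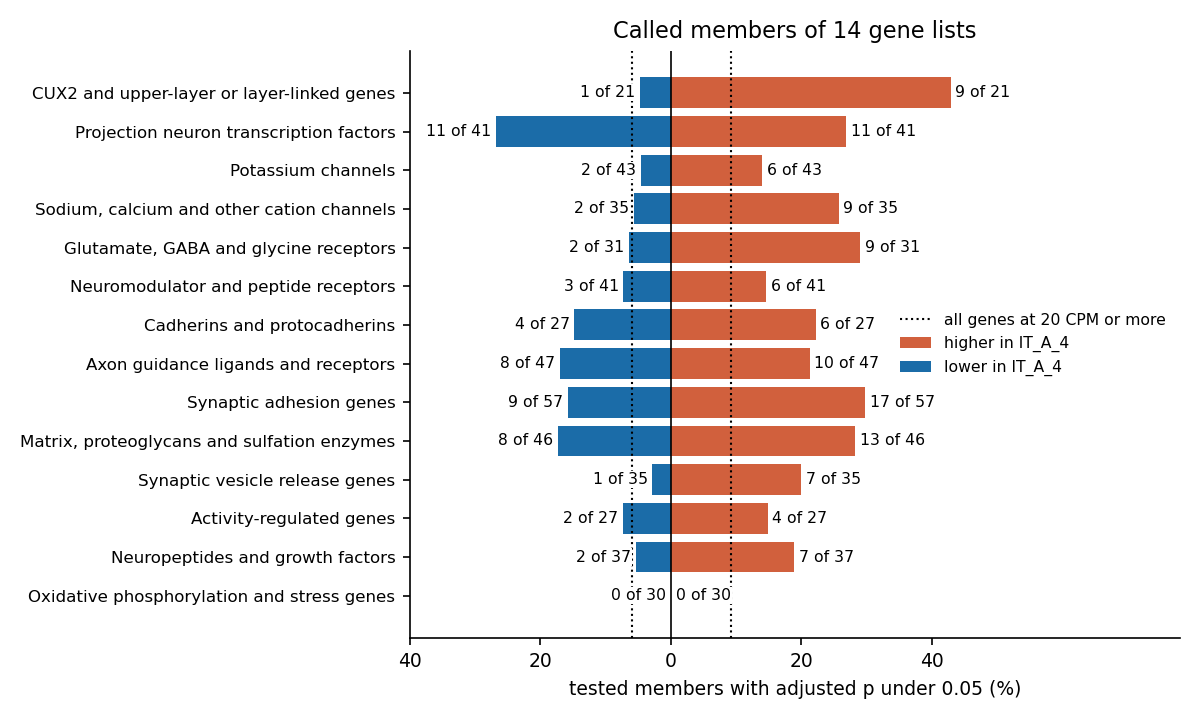
Percent of the tested members of each list that were called higher (right) or lower (left) in IT_A_4, with the counts beside the bars. Dotted lines mark the shares over all genes at 20 CPM or more, 9.14% higher and 6.0% lower.

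Of the 21 tested layer-linked genes, the list that holds CUX2, 9 were called higher and 1 lower (median log2 difference 0.42). ADAMTS2, a procollagen-processing protease, measured 293 CPM in animal 1 and 208 in animal 2. It was also high in IT_A_5 (159 and 179.8) and was at most 22.4 in the other types (log2 difference 3.23, SE 0.17). CDH13 measured 1088 and 751, with IT_A_2 next (405 and 643). RORB, a nuclear receptor of thalamus-recipient neurons, was called higher against the mean (135 and 148 CPM, log2 difference 1.43, SE 0.25), but IT_A_2 was above it (178 and 203) and IT_B far above (1468 ± 175). With the other IT_A nuclei pooled per animal, the RORB difference was 0.41 and not called (edgeR adjusted p = 0.441). The lower member was DEPTOR, an inhibitor of mTOR signalling (type means 379 to 742 elsewhere, 329.8 ± 52.8 in IT_A_4).

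Transcription factors of projection neurons were called in both directions, with 11 of 41 tested higher and 11 lower (median log2 difference -0.06). Beside BCL11B, GLIS3 (150.2 and 257 CPM, others 8.63 to 169.7) and ESRRG (40.8 and 34.6, others 5.01 to 21.0) were higher. GLIS3 overlapped with IT_A_3 and IT_A_5 of animal 2, while ESRRG did not overlap with any type. Of members named after their values were seen, NFIA and NFIB were higher (log2 difference 1.30, SE 0.21, and 0.59, SE 0.09) and NFIX, of the same factor family, was lower (-1.13, SE 0.12). SOX5, a factor of deep-layer and corticofugal neurons, was higher at 658 ± 41.4 CPM (type means 301 to 505 elsewhere), though below L5PT (1345 ± 68.3). FOXP1 (-0.72, SE 0.10), FOXP2 (-0.61, SE 0.14) and LHX2 (-1.79, SE 0.26) were lower. MEF2C was not called and measured 1248 and 1061 CPM against 1149 to 1664.

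Among ion channels, 6 of 43 tested potassium channel genes were higher and 2 lower, and 9 of 35 sodium, calcium and other cation channel genes were higher and 2 lower. KCNH5 and KCNH1, pore subunits of the ether-a-go-go family, were higher. KCNH5 measured 479 and 552 CPM against 86.8 to 377, and KCNH1 1651 and 1743 against 266 to 1362. In both, IT_A_4 lay above every other IT_A sum. Their relative KCNH7 was not called (2181 and 2205 against 1548 to 2284). KCNIP3, a calcium-binding partner of A-type channels, was called higher (log2 difference 0.76, SE 0.12), and KCNK12, a two-pore family member, lower (-0.58, SE 0.13). Beside CACNA1H, the sodium channel beta subunit SCN4B (21.1 and 23.0 against 1.91 to 16.1), the acid-sensing channel ASIC2 (148 and 162 against 48.4 to 102) and ANO4 were higher. For ANO4 (140.0 and 175), IT_A_5 was in the same range (153 and 233). RYR2, an intracellular calcium release channel, was not called (1452 and 1607 against 1059.5 to 1635).

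Of 31 tested receptors for glutamate, GABA and glycine, 9 were higher and 2 lower. The group III metabotropic receptors GRM4 and GRM8, which act at presynaptic terminals, were both higher. GRM4 measured 80.6 CPM in animal 1 and 132 in animal 2 against 4.29 to 44.2, and GRM8 29.4 and 54.8 against 5.26 to 7.39. Kainate receptor genes split. GRIK3 was higher (159 and 109), at the level of IT_A_2 (131 and 135). GRIK4 was lower (485 and 338 against 653 to 1650.4, log2 difference -1.30, SE 0.13). The NMDA receptor gene GRIN2B was not called (2352 and 2624 against 2146 to 3319).

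Receptors for neuromodulators and peptides had 6 of 41 tested higher and 3 lower. HTR2A, a serotonin receptor, was called higher (79.4 and 50.5 CPM), with IT_A_3 next (53.4 and 45.5), so the values overlapped across animals. The orexin receptor HCRTR2 was called higher (83.1 and 114), with IT_A_1 of animal 2 (120.4) above both. ADRA1B, an alpha-1 adrenergic receptor, was lower (24.0 and 28.9 against 36.7 to 70.7), as was the somatostatin receptor SSTR4 (13.2 and 9.77 against 13.7 to 36.3). VIPR2 was not called (214 and 317 against 127 to 315). The calls of HCRTR2 and HTR2A did not hold with nuclei matched on UMIs (edgeR adjusted p = 0.0738 and 0.166), and that of HCRTR2 did not in DESeq2 (adjusted p = 0.0988). The log2 difference of HCRTR2 was 1.02 in the main fit, 0.95 when matched and 1.03 in DESeq2. For HTR2A it was 0.81 in the main fit and 0.58 when matched.

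Of 47 tested axon guidance genes, 10 were higher and 8 lower. SLIT3, a secreted ligand of ROBO receptors, measured 1578 CPM in animal 1 and 1195 in animal 2 against 255 to 819 (log2 difference 1.70, SE 0.10). It was above each of the other 21 groups in both animals, the next being IT_A_5 (795) and, outside IT_A, Lamp5 interneurons (542 ± 33.5). SLIT1, a related ligand named after its values were seen, was lower (log2 difference -0.65, SE 0.10). Semaphorin receptors also split, with NRP2 higher and PLXND1 lower (21.7 and 20.9 against 36.8 to 149.9). PLXNA2 was not called (624 and 539 against 429.7 to 713).

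Cadherins and protocadherins had 6 of 27 tested higher and 4 lower. CDH9 measured 266 and 241 CPM, with IT_A_5 next (147 and 159). CDH7 measured 114 and 139.9 against 18.6 to 82.0, and PCDH10 was lower at 84.1 and 62.7 against 107 to 279. CDH18 was not called (855 and 738 against 672 to 997). Of 57 synaptic adhesion genes, 17 were higher and 9 lower. CLSTN2 (122 and 83.5, others 18.6 to 65.2), CNTNAP4 (132 and 58.4, others 19.1 to 53.8) and DSCAML1 (143 and 268, others 52.9 to 122) were higher, and NECTIN3 was lower (50.8 and 53.7, others 119 to 325). None of these ranges overlapped with IT_A_4, and DSCAML1 was higher in animal 2 than in animal 1 in each of the 5 types. OPCML was not called (log2 difference 0.03, SE 0.10).

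Of 46 genes for matrix proteins, proteoglycans and sulfation enzymes, 13 were higher and 8 lower. Next to NDST4, the heparan sulfate sulfotransferase HS3ST2 was higher (78.1 and 88.2 CPM against 5.96 to 38.0). The other 8 heparan sulfate enzymes tested, grouped after their values were seen, were 4 called higher, NDST3 (log2 difference 1.13, SE 0.15), EXT1 (1.13, SE 0.12), HS3ST5 (0.78, SE 0.18) and HS3ST1 (2.16, SE 0.36), and 4 not called. The latter were NDST1 (log2 difference 0.12, SE 0.12), NDST2 (-0.08, SE 0.19), EXTL3 (0.05, SE 0.14) and HS6ST1 (-0.13, SE 0.19). COL25A1 was lower (-1.73, SE 0.18), and SPOCK1 was not called (397 and 414 against 350.0 to 577).

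In the synaptic vesicle list 7 of 35 tested genes were higher and 1 lower. CPLX1, a complexin that regulates vesicle fusion, measured 70.2 and 95.7 CPM against 11.5 to 29.2. SLC17A6, the vesicular glutamate transporter typical of the thalamus, was higher (31.2 and 32.9 against 8.80 to 24.6), and SYT17 was as well (72.8 and 72.7), with IT_A_5 of animal 1 (80.2) above it. Without IT_A_1 the call of SYT17 was lost (edgeR adjusted p = 0.0602) and RIMS1 was called higher (edgeR adjusted p = 0.0456). STXBP6 was lower (55.5 and 39.8 against 121 to 201). RIMS1 was not called (2714 and 2972 against 1694 to 2762).

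Of 27 activity-regulated genes, 4 were higher and 2 lower. SORCS3 was called (618 and 858 CPM), with IT_A_3 at the same level (636 and 847) and IT_A_5 far below (62.0 and 74.2). HOMER1 was not called and differed between the animals, at 468 CPM in animal 1 and 1263 in animal 2. Of 37 neuropeptide and growth factor genes, 7 were higher, among them PDGFC (33.6 and 22.3, with IT_A_2 of animal 2 at 30.7), and 2 lower, among them WNT9A (8.51 and 4.19), whose level elsewhere rested on IT_A_1 and IT_A_3. FGF14 was not called (508 and 511 against 423 to 686). Of 30 oxidative phosphorylation and stress genes none was called by edgeR without a block or by DESeq2, 1 was called higher and 1 lower with the animal as a block, 1 was called higher with types predicted from other genes, and 4 had an unadjusted edgeR p under 0.05, with NDUFS4 at 98.1 and 106 CPM against 97.7 to 122.

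With the other IT_A nuclei summed to 1 profile per animal, 16 of the 61 called named genes were no longer called. These were EPHB2, RORB, GLIS3, KCNH1, KCNIP3, KCNK12, ANO4, HCRTR2, SSTR4, HTR2A, CNTNAP4, DSCAML1, SLC17A6, SORCS3, WNT9A and PDGFC. In 3 of them the fold also moved by over 1.5 times, to a log2 difference of 0.41 for RORB, 0.43 for HCRTR2 and 0.49 for SORCS3. The folds of CACNA1H, GRM4 and GRIK3 did so as well, to log2 differences of 2.85, 2.15 and 1.14, and these stayed called. The calls of KCNK12 and SSTR4 were also lost after thinning to 3000 UMIs (edgeR adjusted p = 0.104 and 0.0539), and that of DSCAML1 in DESeq2 (adjusted p = 0.0736). The log2 difference of KCNK12 was -0.58 before thinning and -0.57 after it, and that of SSTR4 -0.88 and -0.71. For DSCAML1 it was 1.23 in the main fit and 1.24 in DESeq2. With the animal as a block MEF2C, RYR2, VIPR2 and RIMS1 were called in addition to CUX2, and list counts grew by over 1.5 times for potassium channels (12 higher and 6 lower), other cation channels (15 higher and 5 lower) and axon guidance genes (18 lower). They also did for neuromodulator receptors (12 lower), glutamate and GABA receptors (5 lower), cadherins (8 lower), layer-linked genes (3 lower), vesicle genes (3 lower), activity-regulated genes (5 lower) and growth factors (5 lower). Calls over all genes tested grew with the block as well, from 1019 (5.99%) to 1770 (10.4%) higher and from 565 (3.32%) to 1177 (6.92%) lower. With nuclei matched on UMIs, the higher calls dropped to 3 among neuromodulator receptors and 4 among growth factors. In DESeq2 there were 2 higher activity-regulated genes, 4 lower growth factor genes and 1 lower potassium channel gene.

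The 2 animals also differed within IT_A_4. Of 6272 genes at 20 CPM or more in either animal, 3966 separated the libraries of animal 1 from those of animal 2 (63.2%), and 114 of these differed at least 2-fold (1.82%), 24 higher in animal 2 and 90 higher in animal 1. The libraries of an animal shared 1 suspension, so these counts describe the 2 animals and have no replicate of an animal behind them. The kinase gene CAMK1G measured 14.1 and 12.4 CPM in libraries 1A and 1B and 42.4 and 48.8 in 2A and 2B. NOL11, a nucleolar factor, measured 35.5 and 34.9 against 111 and 118. SPRED2, an inhibitor of the Ras pathway, measured 64.7 and 66.6 against 205 and 208. TP63 measured 13.0 and 7.5 against 29.6 and 33.6, and SLCO4A1 10.2 and 8.21 against 28.1 and 27.2. In these 5 genes both libraries of animal 2 were above both of animal 1. Higher in animal 1 were FERMT1 (29.9 and 21.6 against 4.77 and 2.04), the pituitary hormone gene PRL (74.2 and 74.3 against 23.6 and 16.1), BCO1 (66.1 and 65.9 against 23.8 and 18.8), NT5DC4 (32.2 and 33.5 against 9.54 and 12.7) and HFM1 (26.0 and 25.8 against 9.54 and 8.17).

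The ratio of animal 2 to animal 1 was on the same side of 1 in each of the other 4 IT_A types for 9 of these 10 genes. TP63 was the exception, with a ratio of 3.08 in IT_A_4 and 0.958 in IT_A_5. The ratio of NOL11 was 3.25 in IT_A_4 and 2.01 to 8.5 in the other types, and that of FERMT1 was 0.132 in IT_A_4 and 0.16 to 0.355 in them. None of the 5 genes higher in animal 2 or the 5 higher in animal 1 was among the 24 leading genes of the type. This covers only these 10 genes. Among the 24, MCHR2 and EPHB2 were higher in animal 1 than in animal 2, as given above.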

How the data were processed

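Single-nucleus RNA sequencing of V1 gave 4 libraries from 2 animals. Per the study's methods and the submitters' processing notes, reads were aligned with Cell Ranger 6.1.1 with introns included, to the opossum assembly ASM229v1 with Ensembl 110 models whose 3′ ends had been extended by up to 5 kb. The matrix header names cellranger 7.1.0. The deposited matrices hold raw UMI counts for 30800 genes, of which 37.6% have a symbol, and the authors' annotation gives subclass, type, a doublet call and a Scrublet doublet score as a fraction.

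Counts were summed per type and animal, which gave 10 sums. The 2 animals are the replicates, and p-values measure the spread between these 2. edgeR 4.0.16 (filterByExpr, TMM, glmQLFit and glmQLFTest, R 4.3.3) compared IT_A_4 with the mean of the other 4 types over 17001 genes, with Benjamini-Hochberg adjustment at 0.05. DESeq2 1.42.0, other normalization and filters, an animal block, equal, matched or thinned nuclei, doublet removal, held-out genes and a pooled comparison were alternatives. Sums of an animal come from the same suspension, and their deviations from the type means correlated at 0.183 to 0.424 (median 0.324, 10 pairs of types), so the animal pairs them. Labels were transferred with 3000 variable genes, 30 principal components and 15 neighbours, from at most 500 nuclei per type.

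Genes named by rule were the 12 with a symbol that differed most in each direction among those called, in the same direction in both animals and at 20 CPM or more, the 8 largest in each direction that also lay outside every other type, and per list the 4 largest called and the most abundant member not called. Members, lists and tests were chosen with earlier results of these data known. On simulated data for this comparison (16483 genes) the test recovered 85 of 100 genes changed by 1 on the log2 scale and 98 of 100 changed by 2, with 12 false calls. The simulated sums were drawn independently around a shared mean profile, with fitted dispersions and changed genes above a minimum level. They lacked the correlation within an animal and the differences among the other types, so these rates do not carry over to the real sums. Coordinates and sequences were not used here, since the reference table held another assembly. Neighbouring genes that share reads after extension of their ends were not examined. Some genes that met these rules are not reported here.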

Additional observations from a re-analysis of the deposited data

How the results depend on the processing

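The counts of genes called higher and lower (1019 and 565) moved by over 1.5 times under 2 alternatives, and the lower count also under another. With the animal as a replicate block they were 1770.0 and 1177, and all 1584 calls remained. With no low-count filter 1446 were higher and 876 lower, and with the other IT_A nuclei summed to 1 profile per animal 295 were higher and 192 lower, the latter leaving 4 sums in the fit. Other alternatives gave 716 (thinned to 3000 UMIs) to 1265 (without IT_A_1, chosen after seeing its depth) higher and 394 to 803 lower. The pooled comparison shared 475 of the 1584 calls, and 4 others had the opposite direction there without being called. Thinning shared 1011, with 1 such opposite gene, and the other alternatives shared 1176 to 1584.

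Against IT_A_1 the calls numbered 3024 with no filter, 4078 with the block and 1086 with nuclei matched on UMIs. Against IT_A_2 they were 2359 with no filter and 3129 with the block, and against IT_A_3 2160.0 with no filter, 3132 with the block and 818 matched on UMIs. Against IT_A_5 they were 3701 with the block and 1255 matched on UMIs. Matching leaves fewer nuclei, in numbers that are unequal between the types, and fewer genes. The cause of the other shifts was not tested.

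Label transfer averaged 88.1% and was 78.3% after thinning. Between the animals it ranged from 83.8 to 92.4%, the share from 13.5 to 19.6% and the median depth from 9420.0 to 10859.5 UMIs. Leaving out an animal leaves 1 sum per type and no test of the counts. Of 825 values for the 75 named genes, 791 stayed on their side of the threshold, 23 were no longer called, 11 were newly called and 0 reversed. Depth limits the genes at a few CPM, and the number of animals (2) limits every test.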
